A study of Mus musculus with 4 samples.

Results

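Transcripts of SWI/SNF chromatin remodeling subunits and of the related remodeler Atrx were measured in live CD45− cells, that is cells without the pan-leukocyte marker, from tumors of B16-OVA, an ovalbumin-expressing melanoma line grown in mice. The members were the 7 genes Arid1a, Arid1b, Arid2, Pbrm1, Smarca4, Smarcb1 and Atrx, taken by symbol from the 750 gene probes of a NanoString cancer pathway panel, of which 6 members and 446 probes in all lay above background and were tested. There were 2 samples from Prdm1fl/flFoxP3YFP-Cre (KO) mice, which lack Prdm1, the gene for Blimp1, in Foxp3+ cells, and 2 from FoxP3YFP-Cre (WT) mice. Both groups were C57BL/6, carried the Foxp3-driven Cre, bore tumors of at most 1.5 cm3, and were immunized with NP-OVA in CFA on day 0, when the tumor cells were given, and in IFA on day 7. The labels give no age, and they do not state that each sample came from its own animal, so that p-values measure the spread between these samples, which may be technical.

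SWI/SNF complexes use the energy of ATP to slide or evict nucleosomes and so open promoters and enhancers. They come in alternative assemblies. Smarca4 (Brg1) is a catalytic ATPase and Smarcb1 a core subunit; Arid1a and Arid1b are mutually exclusive subunits of the canonical BAF assembly, whereas Arid2 and Pbrm1 belong to the PBAF assembly. Atrx is an ATPase of the same wider helicase family that works outside SWI/SNF, with Daxx, to place the histone variant H3.3 at telomeres and other repeats. Genes of this group are mutated in part of human melanomas and other cancers.

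Promoter sequence is shown for Smarcb1 and Atrx, a pair of members whose KO samples both lay below both WT samples after housekeeping scaling, one with a CG-rich start and one without. The 250 bases before the start site are from RefSeq, build GRCm38.p6, both on the minus strand, at chr10:75921615-75921864 for Smarcb1 and chrX:105929373-105929622 for Atrx. Capitals mark matches, on either strand, to the GC box GGGCGG and the CCAAT box CCAAT.
Smarcb1: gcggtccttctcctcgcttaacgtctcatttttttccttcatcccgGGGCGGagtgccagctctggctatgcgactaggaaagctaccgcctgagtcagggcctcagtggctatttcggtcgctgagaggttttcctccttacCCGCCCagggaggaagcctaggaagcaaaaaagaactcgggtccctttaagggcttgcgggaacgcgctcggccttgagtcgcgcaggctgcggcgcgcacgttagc
Atrx: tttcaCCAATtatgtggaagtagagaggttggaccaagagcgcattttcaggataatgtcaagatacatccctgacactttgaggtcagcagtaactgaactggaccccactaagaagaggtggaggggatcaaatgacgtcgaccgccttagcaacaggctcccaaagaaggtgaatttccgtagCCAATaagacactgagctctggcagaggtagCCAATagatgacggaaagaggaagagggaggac
The Smarcb1 window held 2 GC boxes and 21 CG dinucleotides. The Atrx window held 3 CCAAT boxes and 6 CG dinucleotides, equal to the median over 32841 such windows and fewer than in the windows of the other members (18 to 37, the highest being that of Arid1b, whose annotated start may lie inside a longer transcript). A GC box was found in 32.7% and a CCAAT box in 33.9% of those windows. Neither the TATA box TATAAA nor the ETS motif CCGGAAG was found in the windows of the 6 members with an entry. These matches are descriptions of the letters, not of bound factors.

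Each sample held between 626056 and 692284 counts over the gene probes. Values below are scaled counts, that is barcode counts divided by a factor per sample (0.935 to 1.06) from the geometric mean of 20 housekeeping probes. KO 2 stood somewhat apart, with correlations on the log2 scale of 0.975 to 0.980 to the other samples, against 0.988 to 0.993 among those. The closest pair, KO 1 and WT 1 (0.993), crossed the groups. Within groups the correlation was 0.980 for KO 1 and KO 2 and 0.988 for WT 1 and WT 2. The Prdm1 probe, at 9 and 6 counts in the KO samples and 9 and 9 counts in the WT samples, lay below background in each, and therefore gave no check of the labels; the deletion is in Foxp3+ cells, which the CD45− gate leaves out. Of 4 measured melanocyte lineage genes, Kit, Met and Pax3 were detected and Lef1 was not. The 4 summed to 2998 (KO 1) and 3579 (KO 2), against 3079 (WT 1) and 3452 (WT 2). Of the 3 tested, 1 was higher and 2 lower in KO by sign. Itga6, the 1 measured gene of the keratinocyte list, gave 891 (KO 1) and 681 (KO 2), against 844 (WT 1) and 801 (WT 2). Its counts alone do not show that keratinocytes were present, since other cells can express it. Of 3 endothelial genes, Kdr and Flt1 were not above background in any sample, whereas Angpt2 was detected and lower in KO by sign, the 3 summing to 428 (KO 1) and 256 (KO 2), against 375 (WT 1) and 419 (WT 2). Of 12 leukocyte markers, 9 were not above background in any sample. The other 3, Il3ra, Pik3cd and Plcg2, were lower in KO by sign, and the sum over all 12 was 247 (KO 1) and 233 (KO 2), against 280 (WT 1) and 326 (WT 2). The 8 fibroblast and pericyte markers summed to 1283 and 1129 scaled counts in KO samples, against 881 and 1629 in WT samples. Pdgfra was not above background in any sample. Of the 7 of these that were tested, 1 (Fn1, log2 fold change 0.16) was higher and 6 lower in KO by sign. The largest log2 fold changes were those of the collagen genes Col3a1 (-1.15), Col1a1 (-1.01) and Col1a2 (-0.86), with adjusted p in edgeR of 0.664, 0.687 and 0.582. No tested marker was at an unadjusted p under 0.05 in edgeR. The part of such cells in the member values was not tested, and in sorted bulk cells fewer cells of a type and less RNA per cell cannot be told apart.

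The catalytic and core subunits were well detected, with small differences between the groups. Smarca4 scaled counts were 1720 in KO 1 and 1489 in KO 2, against 1694 in WT 1 and 1675 in WT 2. The groups overlapped, since KO 1 was the highest and KO 2 the lowest of the 4 samples. These KO samples differed beyond counting error, with exact Poisson 95% intervals of 1637 to 1806 in KO 1 and 1416 to 1564 in KO 2. In edgeR the log2 fold change was -0.07 (SE 0.12, adjusted p = 0.842). Smarcb1 scaled counts were 558 in KO 1 and 550 in KO 2, against 589 in WT 1 and 634 in WT 2. Both KO samples lay below both WT samples, by a small margin. In edgeR the log2 fold change was -0.14 (SE 0.10, unadjusted p = 0.220, adjusted p = 0.664), and its 95% interval ran between 0.760 and 1.08 times the WT level.

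The paralogs Arid1a and Arid1b, which bind DNA without strong sequence preference and occupy the same position in BAF, had their samples in different orders, although their ratio, given further on, overlapped between the groups. Arid1a scaled counts were 707 in KO 1 and 552 in KO 2, against 644 in WT 1 and 640 in WT 2. Here the KO samples lay on either side of the WT samples, 1.28-fold apart, beyond counting error: the exact Poisson 95% interval, which covers counting error only, was 654 to 763 in KO 1 and 508 to 599 in KO 2. The edgeR log2 fold change was -0.03 (SE 0.14, adjusted p = 0.946). Arid1b scaled counts were 264 in KO 1 and 268 in KO 2, against 299 in WT 1 and 362 in WT 2. The KO samples were nearly equal and both lay below both WT samples, which were themselves 1.21-fold apart. The KO mean was 266 ± 3.05 and the WT mean 331 ± 44.3 (SD, n = 2 each). The log2 fold change of -0.31 (SE 0.14, 95% interval -0.65 to 0.03) was the largest of the 6 tested members, a 1.24-fold lower level, and it did not pass the test (edgeR, unadjusted p = 0.0652, adjusted p = 0.569). The counting interval of WT 1, 267 to 334, overlapped those of KO 1 (232 to 299) and KO 2 (238 to 302), whereas that of WT 2, 325 to 402, did not.

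Of the PBAF subunits, Pbrm1, which carries an array of bromodomains that read acetylated histones, was detected and Arid2 was not. Pbrm1 scaled counts were 382 in KO 1 and 306 in KO 2, against 385 in WT 1 and 315 in WT 2. One sample of each group was high and the other low, so that the groups overlapped throughout, with a log2 fold change of -0.03 and a 95% interval of -0.43 to 0.37 (edgeR, adjusted p = 0.946). Arid2, a DNA-binding subunit, gave 6 and 14 raw counts in the KO samples and 12 and 12 in the WT samples. Each lay below the background limit of its own sample, set at the mean plus 2 SD of the 8 negative control probes (17.5 to 21.9 counts), and within the range of those probes, which reached 15 to 19 counts. Arid2 was therefore not detectable with its probe at this depth, and no fold change is given for it.

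Atrx had the highest counts of the 7 probes. Its scaled counts were 2815 in KO 1 and 2623 in KO 2, against 3055 in WT 1 and 2882 in WT 2. Both KO samples lay below both WT samples, although the nearest of them, KO 1 and WT 2, had overlapping counting intervals (2709 to 2925 and 2775 to 2991). The KO mean was 2719 ± 136 and the WT mean 2968 ± 122 (SD, n = 2 each), and edgeR put the log2 difference at -0.13 (SE 0.10, adjusted p = 0.687, unadjusted p = 0.272).

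**Figure D1:**
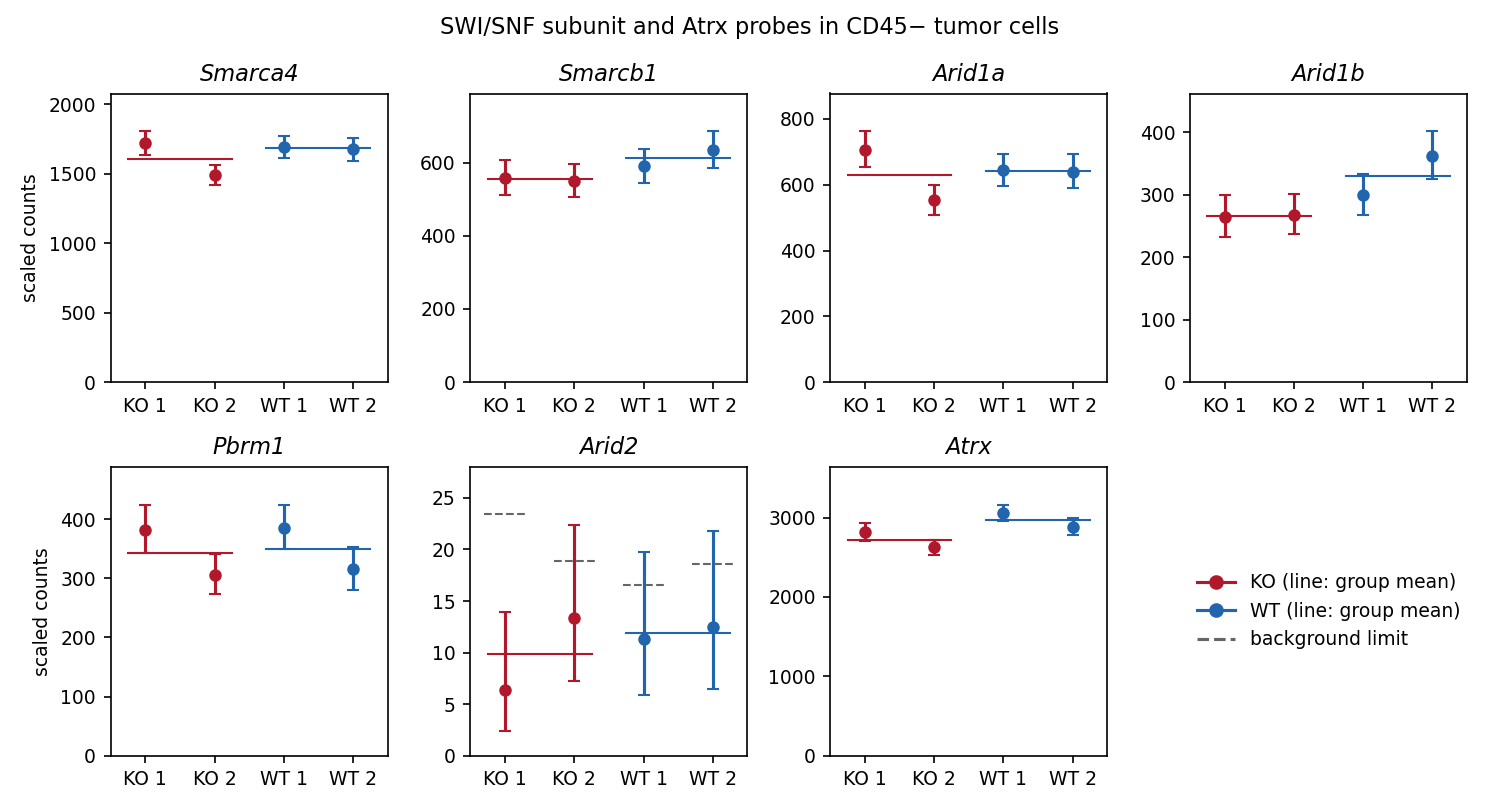
Scaled counts (linear axes from 0) of the 7 member probes in the 2 KO and 2 WT samples, with exact Poisson 95% intervals for counting error as bars and group means as lines; dashes give each sample's background limit for Arid2. Arid1b, Smarcb1 and Atrx have both KO points below both WT points, and Arid2 lies below the limit in each sample.

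In order of mean scaled counts the probes ran Atrx, Smarca4, Arid1a, Smarcb1, Pbrm1, Arid1b and Arid2. The ranges of Arid1a and Smarcb1 over the samples overlapped, although Arid1a was the higher within each sample, in KO 2 at 552 against 550. Those of Pbrm1 and Arid1b overlapped too, and in WT 2 Arid1b was the higher. The other neighbours were separated in all samples. This is an order of counts and not of transcripts, because each probe hybridizes with its own efficiency.

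No member passed the test across all genes. Of the 6 tested members, 0 passed an adjusted p of 0.05 in edgeR's quasi-likelihood test, where 0.00% of the 446 tested genes did, and 0 were at an unadjusted p under 0.05, where 7.40% of the tested genes were (4.48% lower and 2.91% higher in KO). DESeq2 and limma-voom passed 0 members at the adjusted threshold too. By sign 6 of 6 were lower in KO samples, beside 66.8% of all tested genes, and their median log2 fold change was -0.10, beside -0.08 over all. Both KO samples lay below both WT samples for 3 members (Arid1b, Smarcb1 and Atrx), beside 31.4% of all tested genes, and above them for 0 members, beside 11.2%. The members thus lay near the middle of the panel: 5 of 6, all but Arid1b, fell between the lower and upper quartile of all log2 fold changes (-0.20 and 0.06). The half-width of a member's 95% interval was 0.25 to 0.40 on the log2 scale, so that smaller differences were not resolved, and an exact two-sided permutation test of 2 against 2 samples cannot give a p below 0.333.

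**Figure D2:**
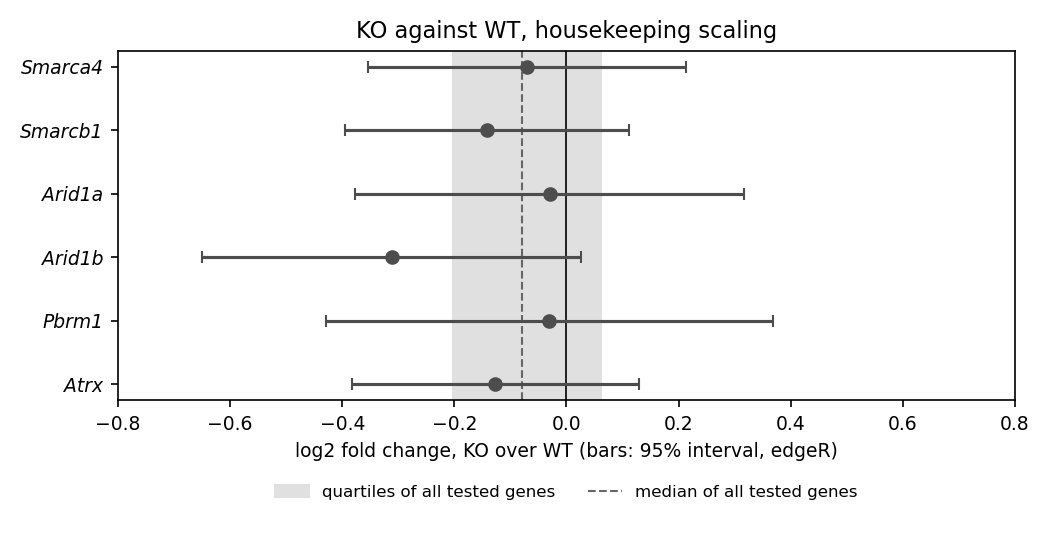
Log2 fold change (KO over WT) of the 6 detected members with 95% intervals from edgeR; the band spans the quartiles (-0.20 to 0.06) and the dashed line the median (-0.08) of all 446 tested genes. Every interval includes 0, and Arid1b is the member outside the band.

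The sign of several members depended on the scaling and on single samples. With TMM and with DESeq2 size factors 4 of the 6 were lower in KO samples and Arid1a and Pbrm1 were higher, and after scaling to the positive controls (geometric mean 790 counts in KO 1 and 966 to 974 in the others) only Arid1b and Smarcb1 were lower by sign. The median of all tested genes moved with these scalings too, between -0.09 and 0.05. Arid1b had both KO samples below both WT samples under each of the 5 scalings, with a log2 fold change between -0.32 and -0.18, as were 6.95% of all tested genes, a count chosen after the data were seen. Without KO 2 the log2 fold changes of Arid1a, Pbrm1 and Smarca4 were 0.14, 0.12 and 0.03, and those of Arid1b, Smarcb1 and Atrx were -0.32, -0.13 and -0.08. Without WT 1 that of Pbrm1 was 0.12. The Arid1b difference was -0.17 without WT 2 and -0.44 without WT 1 (edgeR, unadjusted p = 0.0467, adjusted p = 0.733). In that fit the lone WT sample is assumed to vary like the KO samples, which alone give the spread.

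**Figure D3:**
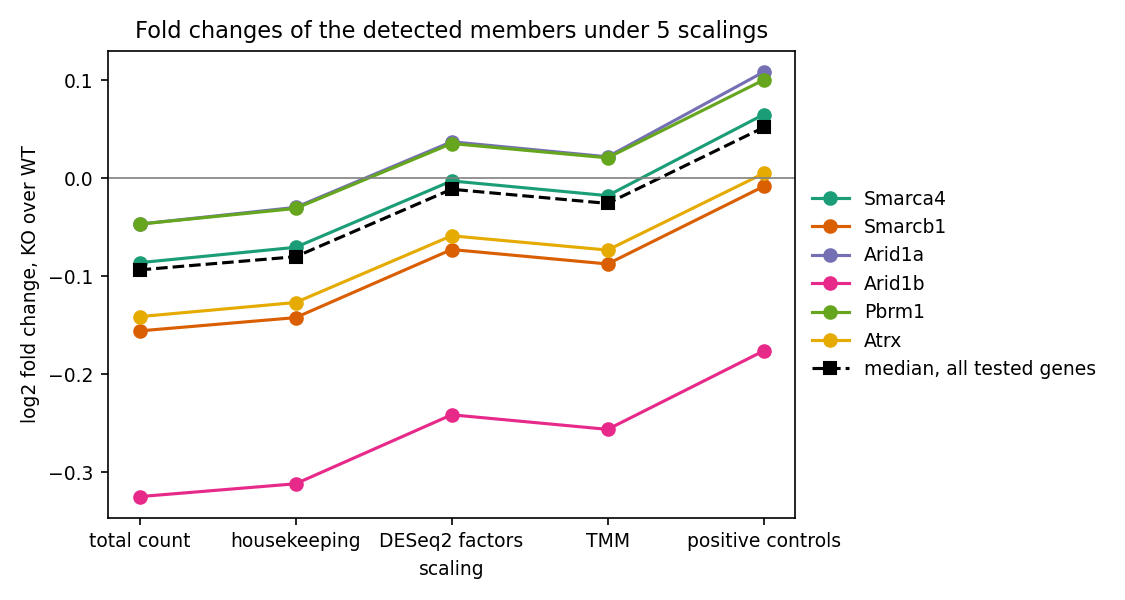
Log2 fold change (KO over WT) of the 6 detected members under 5 scalings of the counts, with the median of all 446 tested genes as a dashed line. All lines move together with the scaling; Arid1b stays lowest, from -0.32 with the total count to -0.18 with the positive controls.

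Ratios between probes within a sample do not depend on the scaling. The ratio of Arid1a to Arid1b counts was 2.68 and 2.06 in the KO samples, against 2.15 and 1.77 in the WT samples. The groups overlapped, since KO 2 lay below WT 1, and the ratio was 1.20-fold higher in KO on average (difference of 0.27 on the log2 scale, exact two-sided permutation p = 0.667, n = 2 each). The difference was 0.08 without KO 1, 0.46 without KO 2, 0.41 without WT 1 and 0.12 without WT 2. Within the core, the ratio of Smarcb1 to Smarca4 was 0.324 and 0.370 in the KO samples, against 0.348 and 0.378 in the WT samples. That of the ATPases Atrx and Smarca4 was 1.64 and 1.76 in the KO samples, against 1.80 and 1.72 in the WT samples. Both overlapped between the groups and differed by -0.07 and -0.05 on the log2 scale (exact two-sided permutation p = 0.667 for each, 3 ratios compared). The ratios to Arid2 were left out, as it was below background.

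**Figure D4:**
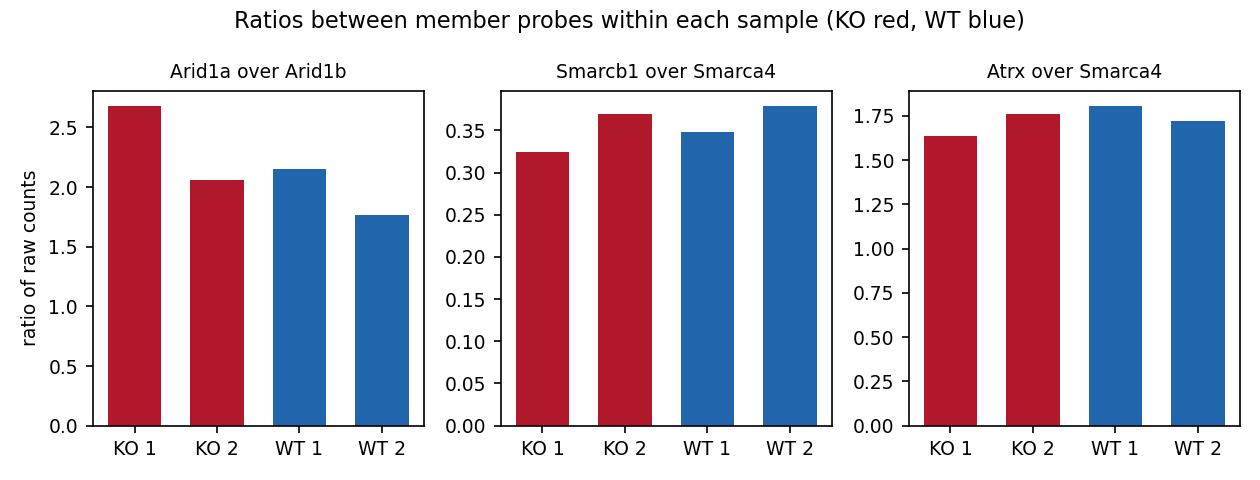
Ratio of raw counts (linear axes from 0) between member probes in each of the 2 KO and 2 WT samples. The Arid1a to Arid1b ratio is highest in KO 1 (2.68) and lowest in WT 2 (1.77), with KO 2 and WT 1 between them.

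The members did not all share the same pattern over the samples. After centring log2 scaled counts over the 4 samples, Smarca4 and Atrx were the closest of 15 pairs (root mean square difference 0.05), followed by Arid1a and Smarca4 (0.05), and Arid1b and Pbrm1 the farthest (0.27), before Arid1a and Arid1b (0.21). In KO 1, Arid1b was at -0.16 and Arid1a at 0.16. In WT 2, Arid1b was at 0.29 and Pbrm1 at -0.13. All 6 detected members were below their own mean in KO 2, but the share of all tested genes with this trait was not counted. The members' mean profile was not particular to them, since 128 of the 440 other tested genes lay within 0.1 of it. These values rest on 4 samples that share 1 scaling factor each, and are given as a description.

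No other SWI/SNF subunit was on the panel. Both measured partners of Atrx were detected. Daxx, the H3.3 chaperone, gave 96.2 (KO 1) and 105 (KO 2) scaled counts, against 102 (WT 1) and 183 (WT 2), so that WT 2 alone stood out (log2 fold change -0.50, edgeR, adjusted p = 0.651). H3f3a, a gene for H3.3 whose protein is also made from H3f3b, gave 10630 (KO 1) and 11534 (KO 2), against 12087 (WT 1) and 11481 (WT 2) (log2 fold change -0.09, edgeR, adjusted p = 0.807).

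Other chromatin genes were taken from lists drawn up here, which do not hold every chromatin gene of the panel and count in the metabolic genes Idh1 and Idh2. These listed genes showed a like distribution. Of 35 measured, 34 were tested and 0 passed the adjusted threshold. By sign 26 were lower and 8 higher in KO, beside 66.8% of all tested genes lower. Their median was -0.09, beside -0.08 over all tested genes. With positive controls 20 were higher and 14 lower, beside 175 of all 446 tested genes lower. For 13 tested histone methylation and Polycomb genes the split was 2 higher and 11 lower, and for 19 DNA methylation, acetylation and corepressor genes it was 6 and 13. The Polycomb-associated gene Asxl1 gave 406 (KO 1) and 354 (KO 2) scaled counts, against 481 (WT 1) and 507 (WT 2) (edgeR, unadjusted p = 0.0173, adjusted p = 0.538). The histone H3K4 methyltransferase gene Kmt2d gave 594 (KO 1) and 522 (KO 2) scaled counts, against 698 (WT 1) and 677 (WT 2) (edgeR, unadjusted p = 0.0375, adjusted p = 0.569). These were the 2 of the 34 listed genes at an unadjusted p under 0.05. Among genes left out of the lists, Hells had a log2 fold change of -0.35 (edgeR, unadjusted p = 0.134, adjusted p = 0.649). Hmga1 and Hmga2, also left out, were higher in KO, at 0.28 and 0.57 (edgeR, unadjusted p = 0.0308 and 0.0463, adjusted p = 0.569 for each). Next by p on the lists was the sirtuin gene Sirt4, counted through the acetylation list and not for a known role at chromatin. It was at 56.7 (KO 1) and 58.1 (KO 2), against 84.1 (WT 1) and 85.3 (WT 2). The class IIa deacetylase gene Hdac4 followed, at 307 (KO 1) and 266 (KO 2), against 350 (WT 1) and 349 (WT 2) (edgeR, adjusted p = 0.569 for each of Sirt4 and Hdac4). Ezh2 is the methyltransferase of Polycomb repressive complex 2, which SWI/SNF opposes at many genes. It was at 1361 (KO 1) and 1133 (KO 2), against 1222 (WT 1) and 1238 (WT 2) (log2 fold change 0.02, edgeR, adjusted p = 0.950). Like Smarca4 and Arid1a it had KO 1 highest and KO 2 lowest, an order whose share over all tested genes was not counted.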

How the data were processed

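The authors profiled 100 ng of RNA from each sample on a NanoString nCounter mouse cancer pathway panel. They deposited raw barcode counts for 750 gene, 20 housekeeping, 8 negative and 6 positive control probes. They also deposited a scaled signal, namely the counts times 1 factor per sample (0.877 to 0.986) with a floor of 17, whose derivation the sources used here do not state. Members and lists were chosen with earlier results of these data known. Groups came from the sample titles.

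Gene probes were tested if their count exceeded a background limit (negative control mean plus 2 SD) in at least 2 samples, which left out 304. Counts were tested with edgeR 4.0.16 in R 4.3.3 (glmQLFit, glmQLFTest, two-sided, genotype as the only term, housekeeping factors as scaling), with Benjamini-Hochberg adjustment over 446 genes. Standard errors came from the fold change and its F statistic. Alternatives were TMM, DESeq2 size factor, total count and positive control scaling, DESeq2 1.42.0, limma-voom (limma 3.58.1), a per-gene test with unequal variances (log2 scale), background subtraction, the deposited signal in limma (log2, pseudocount 1), a replicate block, other filters, and leaving out each sample. Scripts were tested on simulated data. All members, the 4 other chromatin genes of lowest p, the measured Atrx partners and the 3 genes of most similar profile were to be named, of which 1 result is not reported here; Ezh2 was chosen after its values were seen. Hdac3, a housekeeping probe here, was not counted as a chromatin gene. Chi-square per degree of freedom between samples was at least 12.8, above counting noise, and each was counted as a sample; this does not show that they came from separate tumors. All 7 member accessions matched the same symbol in RefSeq.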

Additional observations from a re-analysis of the deposited data

How the results depend on the processing

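Arid1b and Smarcb1 were lower in KO samples under each of 17 alternatives, with log2 fold changes of -0.44 to -0.17 and -0.19 to -0.01. Atrx was lower under 16 of 17. The share of all tested genes that kept a lower sign throughout was not counted. Many of the alternatives use the same 4 samples and housekeeping factors, so that their signs are not independent. No member passed the adjusted threshold under any of the alternatives. With TMM, Arid1a was at 0.022 and Pbrm1 at 0.021, and with DESeq2 size factors they were at 0.037 and 0.036. With positive controls Arid1a was at 0.11, Pbrm1 at 0.10, Smarca4 at 0.065 and Atrx at 0.0051. Then 2 members in place of 6 and 14 other chromatin genes in place of 26 were lower. So were 175 of all tested genes in place of 298. In fits without 1 sample in turn, the lone sample of a group is assumed to vary like the other group. There Arid1a ranged from -0.22 to 0.14, Pbrm1 from -0.20 to 0.12 and Smarca4 from -0.18 to 0.030, and 3 to 6 members were lower. With the same samples left out, the log2 ratios of Smarcb1 and of Atrx to Smarca4 ranged from -0.16 to 0.027 and from -0.11 to 0.00045. Over all tested genes, 0 passed the adjusted threshold and 33 were at an unadjusted p under 0.05. DESeq2 called 3 (Bnip3, Pgf and Pik3r3), leaving out 1 sample 0 to 20, the 20 without KO 1, and the unadjusted count became 14 with the unequal-variance test, 52 with no filter and 12 to 105 without 1 sample (105 without KO 1, 12 without WT 2). The replicate block called 1 gene (Bnip3); over genes, KO and WT samples that share a number had deviations correlated at r = 0.04, and were not treated as pairs. The cause of these changes was not tested. Depth leaves a counting error of 1.76% to 6.36% on the detected member counts.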

Other observations

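Of the tested genes that are not members, Mllt4 and Hras were among those whose profiles over the 4 samples were most like the mean profile of the 6 detected members, with root mean square differences of 0.01 and 0.02 in centred log2 scaled counts. Mllt4, the gene for the cell junction protein afadin, gave 833 (KO 1) and 744 (KO 2) scaled counts, against 866 (WT 1) and 841 (WT 2). The likeness is not particular to these genes, since 128 of the 440 other tested genes lay within 0.1 of the members' mean profile, in which KO 2 was at -0.14 and the other samples were at 0.02 to 0.06.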
